A study of Mus musculus with 10 samples.

Results

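Genes that move chloride, bicarbonate and sodium across the gut epithelium, together with the guanylin peptides and their receptor, were followed in RNA-seq counts of tissue labelled proximal intestine from mice labelled WT or KO for *Zip14* (*Slc39a14*), a transporter of zinc and other metals. The set holds 10 named genes out of 35275 gene IDs in the files, and all 10 were matched to a gene ID by symbol and passed the filter on low counts. Libraries were made from single mice, 5 labelled WT and 5 labelled KO, all labelled 8 to 10 weeks of age, and sex was not given per mouse. According to the paper, the KO mice of the RNA-seq were whole-body knockouts and shared their strain with the WT controls, both born from matings of heterozygous mice, while the title of the series names a deletion in enterocytes. The labels give only KO, so that neither a cell type nor a promoter behind the deletion can be stated from them. Each library had between 16729787 and 20819678 counts in WT mice and between 17118742 and 19414828 in KO mice.

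Fluid movement in the intestine is set by the balance of absorption and secretion. Sodium enters enterocytes through apical sodium-proton exchangers (*Slc9a3* and *Slc9a2*) while chloride is taken up in exchange for bicarbonate (*Slc26a3* and *Slc26a6*). In secretion, *Slc12a2* loads chloride into the cell from the blood side, *Cftr* lets it out into the lumen and *Kcnq1* recycles potassium. Guanylin (*Guca2a*) and uroguanylin (*Guca2b*) are small peptides released by the epithelium that bind guanylate cyclase C (*Gucy2c*), and the cyclic GMP made by this receptor opens CFTR and slows the sodium-proton exchanger encoded by *Slc9a3*. Uroguanylin is known as the ligand of the upper small intestine and guanylin as that of the distal gut and colon.

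The guanylin genes are neighbours on chromosome 4 of GRCm38. *Guca2a* (ENSMUSG00000023247) lies from 119637704 to 119639471 on the plus strand and *Guca2b* (ENSMUSG00000032978) from 119656607 to 119658954 on the minus strand, each with 3 exon blocks in GENCODE M21. Their levels moved in opposite directions in KO mice, and the DNA directly upstream of each is therefore shown, with that of *Slc9a3* (ENSMUSG00000036123, chromosome 13 from 74121457 to 74169442), the gene of the set with the lowest log2 fold change. Sequences are from RefSeq (GRCm38.p6), 5′ to 3′ on the strand of the gene, and end before the earliest transcription start that RefSeq or GENCODE M21 gives. They cover chr4:119637482-119637703, chr4:119658955-119659195 and chr13:74121163-74121412. Capitals mark matches, on either strand, to the letters GATAAG, letters bound by factors of the GATA family, or GTTAAT, the core of sites for HNF1 factors.
Guca2a: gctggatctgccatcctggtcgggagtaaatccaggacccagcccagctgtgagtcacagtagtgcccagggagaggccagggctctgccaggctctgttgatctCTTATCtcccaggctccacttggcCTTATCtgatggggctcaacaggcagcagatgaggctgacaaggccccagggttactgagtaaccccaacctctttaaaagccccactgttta
Guca2b: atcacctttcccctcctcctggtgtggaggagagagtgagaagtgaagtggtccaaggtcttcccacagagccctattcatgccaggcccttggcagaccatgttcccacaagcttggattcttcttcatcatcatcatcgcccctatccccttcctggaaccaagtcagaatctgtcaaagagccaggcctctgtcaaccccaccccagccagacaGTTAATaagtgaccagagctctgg
Slc9a3: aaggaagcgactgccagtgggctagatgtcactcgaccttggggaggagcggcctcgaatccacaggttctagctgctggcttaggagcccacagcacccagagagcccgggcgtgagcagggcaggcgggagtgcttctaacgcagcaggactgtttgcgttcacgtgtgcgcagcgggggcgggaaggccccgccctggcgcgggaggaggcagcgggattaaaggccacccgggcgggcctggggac

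The *Guca2a* window of 222 bases held GATAAG 2 times, on the reverse strand, and 5.95% of all RefSeq promoter windows of that length held it at least 1 time. The *Guca2b* window of 241 bases held GTTAAT 1 time, which 6.29% of windows of that length did. Neither was found in the *Slc9a3* window of 250 bases, whose GC content was 67.6% against 56.8% for *Guca2a* and 53.5% for *Guca2b*. The letters TTTATNG, for CDX factors, and TATAAA, for the box that bears its name, searched in the same way, were in none of the 3 windows. Of all windows, 8.45% and 10.1% hold them at 222 bases, 9.55% and 12.1% at 241 bases, and 9.81% and 12.4% at 250 bases. The *Guca2a* and *Guca2b* windows stop short of the RefSeq start, and the bases between were not searched. The motifs do not overlap each other in these sequences.

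The libraries differed in more than these genes. *Slc39a14* had 260.4 ± 62.5 CPM in WT and 102 ± 32.9 CPM in KO mice (SD, n = 5 each), where CPM is the count of a gene relative to library size after TMM normalization, and all KO libraries were below all WT libraries. Every KO library still held 1636 to 2842 counts of it, 39.3% of the WT level on average, which goes against a complete loss of the transcript. The part of the gene that was deleted in these mice was not checked here. The paper states that *Zip14* expression is highest in the proximal gut and falls toward the distal end. As the KO libraries held ileal markers (below), deletion and position along the gut cannot be told apart in this value. The ileal gene *Fabp6* had at most 1.74 CPM in WT libraries and between 2307 and 9058 CPM in KO libraries, while *Lct*, lactase of the upper small intestine, had 3363 to 3783 CPM in WT and 0.315 to 702 CPM in KO libraries (adjusted p = 0.0632, without overlap), so that these markers of the KO libraries went against a label of proximal intestine. Of 6 ileal genes 5 were higher, of 7 tested proximal genes 4 were lower, and of 10 enterocyte genes 7 were lower in KO mice (adjusted p under 0.05). All 10 smooth muscle genes were higher, with a summed level of 1220.2 to 2182 CPM in WT and 3276 to 9979 CPM in KO libraries, and their mean log2 CPM was highest in KO replicate 4. Of 12 genes of epithelium in general 8 were higher and none was lower, and their sum was 14323 to 16456 CPM in WT and 17011 to 24239 CPM in KO libraries. Of 6 colonic genes only 2 passed the filter on low counts in enough libraries to be tested, both higher. The summed level of the list was 18.2 to 56.3 CPM in WT and 33.8 to 1304 CPM in KO libraries, where *Car1* in KO replicate 2 alone had 1172 CPM. *Aqp8*, not tested and named after its values were seen, had 6.69, 17.7 and 49.9 CPM in WT replicates 1 to 3. Its level was 70.8 CPM in KO replicate 2 and at most 0.224 CPM in the remaining libraries. The part of these differences in the results that follow was not tested beyond the values given. In bulk tissue, fewer cells of a type and less RNA per cell cannot be told apart.

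Of the 10 genes, 1 rose in KO mice (*Guca2a*) and 5 fell (*Slc9a3*, *Guca2b*, *Gucy2c*, *Slc26a3* and *Slc26a6*), with an adjusted p under 0.05 in edgeR's quasi-likelihood test over 15610 genes. Over all tested genes, 29.9% passed this threshold, 16.0% as higher and 13.9% as lower. *Cftr*, *Slc9a2*, *Slc12a2* and *Kcnq1* did not pass it. No overlap of KO with WT libraries was found for 5 of the 10 genes, against 21.1% of all tested genes. The median log2 fold change was -0.45 over the set and 0.03 over all tested genes. DESeq2 also gave an adjusted p under 0.05 to 6 of the 10, and to 5602 of the 19888 genes it tested. With the mean log2 CPM of the smooth muscle genes as a covariate none of the 10 passed in edgeR, and *Guca2b*, *Slc9a2* and *Kcnq1* (3 genes) had an unadjusted p under 0.05, as did 2096 of all tested genes (13.4%). In that fit the log2 fold changes of *Guca2b* (-2.13), *Kcnq1* (0.72), *Slc9a2* (0.59) and *Slc12a2* (0.27) were further from 0 than without the covariate. Those of *Slc9a3* (-0.49), *Guca2a* (0.36), *Gucy2c* (-0.31), *Slc26a6* (-0.23) and *Cftr* (-0.047) were closer to 0, and *Slc26a3* was at 0.19. Under this covariate 12 of all tested genes passed, and the score did not overlap between the groups (6.47 to 7.29 in WT and 7.96 to 9.50 in KO libraries), so that score and genotype cannot be told apart.

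**Figure D1:**
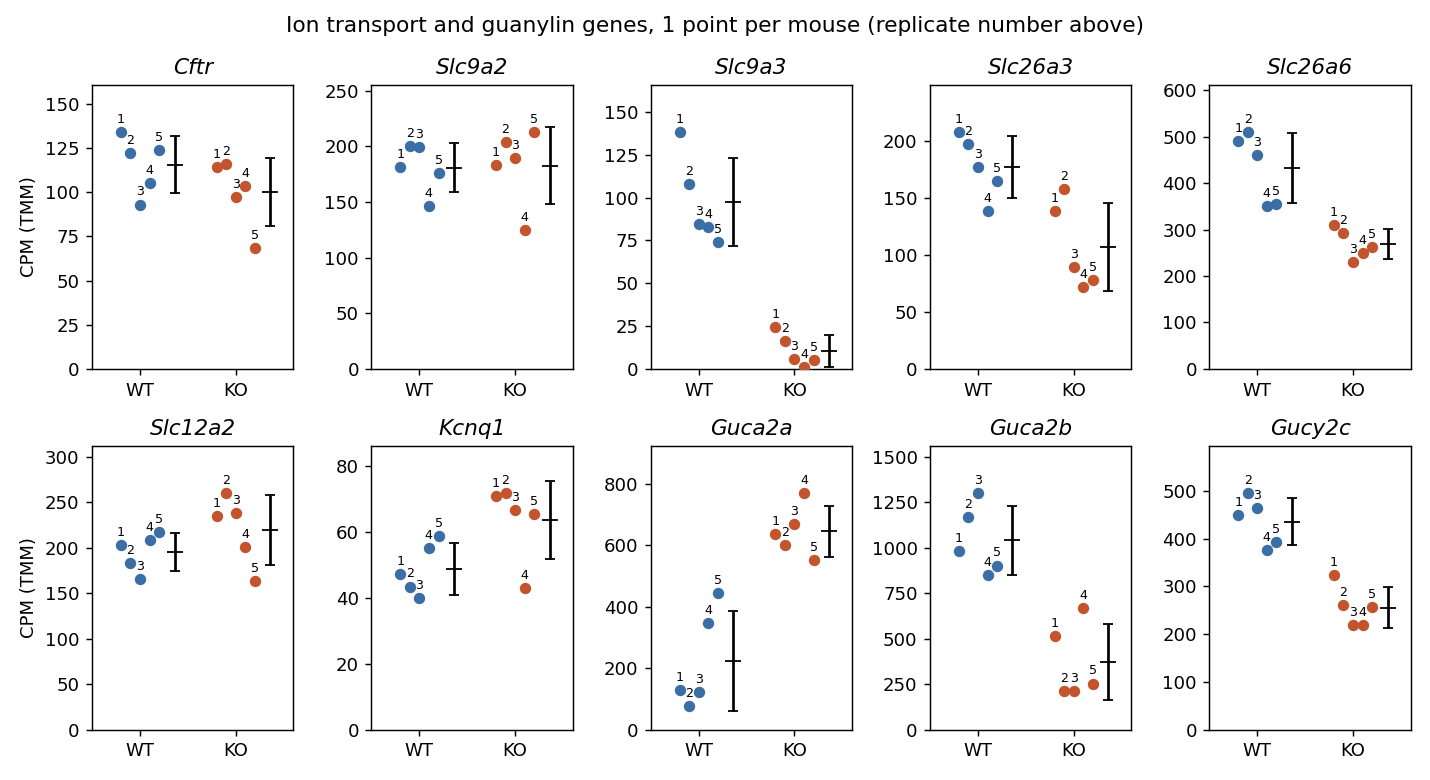
CPM (TMM-normalized, linear axes from 0) of the 10 genes in 5 WT and 5 KO libraries, with 1 numbered point per mouse and the mean and SD of each group as a bar. *Slc9a3*, *Slc26a6*, *Guca2b* and *Gucy2c* lie lower and *Guca2a* higher in all KO libraries than in any WT library, while the other 5 genes overlap.

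Among the ligands, guanylin rose and uroguanylin fell. *Guca2a* had 128, 78.0, 123, 347 and 446 CPM in WT replicates 1 to 5 and 636, 599.7, 671, 770.3 and 552 CPM in KO replicates 1 to 5. Every KO library was above every WT library, and WT replicates 4 and 5 were well above WT replicates 1, 2 and 3. KO differed from WT by 1.53 on the log2 scale (standard error of the model, SE, 0.43, adjusted p = 0.0214), a level 2.88 times that of WT mice. The call was lost without WT replicate 1 (adjusted p = 0.0536) or WT replicate 3 (adjusted p = 0.0524). *Pdx1*, a factor of the duodenum that was looked up after these values were seen, had 1.142, 14.7 and 6.24 CPM in WT replicates 1, 2 and 3 against 0.220 and 0.168 CPM in WT replicates 4 and 5. It did not pass the filter on low counts. Of the proximal list, *Gata4*, *Fabp1*, *Apoa4*, *Slc40a1* and *Adh1* were also lower in WT replicates 4 and 5 than in the other WT libraries. *Cybrd1* was not, and *Lct* was higher in them (3641 and 3783 CPM against 3363 to 3533 CPM). The part of position along the gut in these values was not tested.

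*Guca2b* had 983, 1171, 1300.1, 850.2 and 902 CPM in WT replicates 1 to 5 and 516, 213, 211, 666 and 254 CPM in KO replicates 1 to 5. All KO libraries were below all WT libraries, and KO replicates 1 and 4 kept more than the other KO libraries. The log2 fold change was -1.48 (SE 0.33, adjusted p = 0.00824), which left 35.7% of the WT level. Since both peptides act on the same receptor, they were also compared within each library, where scaling plays no part. The log2 ratio of *Guca2b* to *Guca2a* was 2.51 ± 1.29 in WT and -0.96 ± 0.67 in KO mice (SD, n = 5 each), a difference of -3.47 (2-sided exact permutation test, p = 0.00794, the smallest that 5 against 5 can give, and 0.0119 after adjustment over 3 ratios). *Guca2a* made up 6.24% to 33.1% of the CPM of the pair in WT libraries and 53.6% to 76.0% in KO libraries, so that the more abundant transcript changed from uroguanylin to guanylin in all 5 KO mice. The sum of the pair was 1266 ± 123 CPM in WT and 1018 ± 273 CPM in KO mice (SD, n = 5 each), with KO replicate 4 above all WT libraries and KO replicates 2, 3 and 5 below them.

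**Figure D2:**
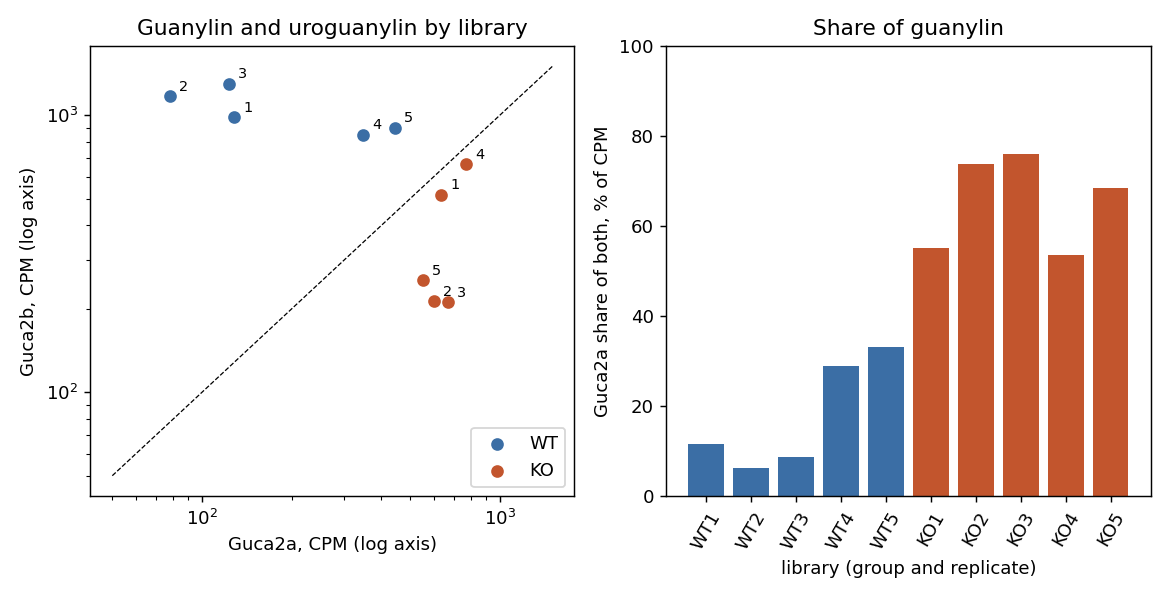
Left, *Guca2b* against *Guca2a* in CPM on log axes, 1 numbered point per library, with a dashed line where both are equal. Right, the share of *Guca2a* in the CPM of the pair, from 6.24% to 33.1% in WT and from 53.6% to 76.0% in KO libraries.

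Goblet cells and enterocytes are among the sources of these peptides, and their markers differed as well. Of 8 goblet cell genes, 6 were higher in KO mice, and the list had a summed level of 11251 to 17014 CPM in WT and 16917 to 24199 CPM in KO libraries. *Fcgbp* and *Zg16*, which had the most CPM of that list over both groups, had log2 fold changes of -0.24 (adjusted p = 0.398) and 0.25 (adjusted p = 0.335) and did not pass. The summed level of the enterocyte genes was 31307.5 to 39492 CPM in WT and 15494 to 33400.2 CPM in KO libraries, and 7 of the 10 genes were lower. *Anpep* and *Apoa1*, which had the most CPM of that list over both groups, were among the 3 that did not pass (adjusted p = 0.711 and 0.211). The part of these lists in the values of *Guca2a* and *Guca2b* was not tested.

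The receptor gene *Gucy2c* (ENSMUSG00000042638) fell with its ligand *Guca2b*. It had 449, 496, 463, 377 and 394 CPM in WT replicates 1 to 5 and 323, 262, 219, 219.6 and 256 CPM in KO replicates 1 to 5. No KO library reached the WT range, and the spread within each group was narrow. The log2 fold change was -0.77 (SE 0.13, adjusted p = 0.00249), or 58.7% of the WT level, and it stayed between -0.87 and -0.72 with any 1 mouse left out. Downstream of the receptor, *Prkg2*, the membrane-bound kinase activated by cyclic GMP that acts on CFTR, fell from 140.5 ± 24.5 to 41.9 ± 11.3 CPM (SD, n = 5 each; log2 fold change -1.74, adjusted p = 3.10e-04). *Pde5a*, which breaks down cyclic GMP, rose from 110.3 ± 16.8 to 151 ± 18.1 CPM (log2 fold change 0.45, adjusted p = 0.0191).

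The apical sodium-proton exchangers went separate ways. *Slc9a3* (NHE3, the main exchanger of sodium absorption) had 138, 108, 84.4, 82.9 and 74.2 CPM in WT replicates 1 to 5 and 24.4, 16.1, 5.83, 1.001 and 5.04 CPM in KO replicates 1 to 5. KO differed from WT by -3.22 on the log2 scale (SE 0.63, adjusted p = 0.00427), which left 10.7% of the WT level, and every KO library was far below the WT range. KO replicate 4 had 21 counts against at least 1325 counts in any WT library. With single mice left out the log2 fold change was between -3.81 (without KO replicate 1) and -2.92 (without KO replicate 4). KO replicates 1 and 2, which had the most *Slc9a3* among KO libraries, were also the highest KO libraries for 4 of the 8 proximal genes (*Apoa4*, *Lct*, *Gata4* and *Cybrd1*, of which *Gata4* and *Cybrd1* were named after their values were seen) and not for the other 4.

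*Slc9a2* (NHE2, an exchanger with a smaller part in absorption) had 181, 199.9, 199.6, 146 and 176 CPM in WT replicates 1 to 5 and 183, 204, 189, 125 and 213 CPM in KO replicates 1 to 5. The groups overlapped, with KO replicate 4 below and KO replicates 2 and 5 above all WT libraries. The log2 difference of 0.02 (SE 0.15, adjusted p = 0.944) was smaller than the spread between mice. The log2 ratio of *Slc9a3* to *Slc9a2* within a library was -0.92 ± 0.35 in WT and -4.75 ± 1.53 in KO mice (SD, n = 5 each), a difference of -3.83 (2-sided exact permutation test, p = 0.00794, adjusted p = 0.0119). The lower *Slc9a3* level was thus also seen against *Slc9a2* of the same library.

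Both apical chloride-bicarbonate exchangers fell to a similar share of their WT level. *Slc26a6* (PAT1, the exchanger of the upper small intestine) had 492, 509.7, 460.5, 351 and 356 CPM in WT replicates 1 to 5 and 310.1, 292, 229.9, 249 and 264 CPM in KO replicates 1 to 5. The groups did not overlap, and the log2 fold change was -0.69 (SE 0.14, adjusted p = 0.00530), or 62.0% of the WT level. *Slc26a3* (DRA, the exchanger whose loss causes chloride diarrhea) had 207, 197, 177, 138.2 and 164 CPM in WT replicates 1 to 5 and 138.0, 157, 89.3, 71.6 and 78.2 CPM in KO replicates 1 to 5. Here KO replicate 2 lay within the WT range and KO replicate 1 was just below it, while the other 3 KO libraries were clearly lower. The log2 fold change of -0.73 (SE 0.22, adjusted p = 0.0311) was called only narrowly, as the adjusted p was between 0.0589 and 0.0732 without WT replicate 1, 2 or 3 or KO replicate 3, 4 or 5, left out 1 at a time. The log2 ratio of *Slc26a3* to *Slc26a6* was -1.29 ± 0.11 in WT and -1.39 ± 0.39 in KO mice (SD, n = 5 each), and the difference of -0.10 was within the spread between mice (2-sided exact permutation test, p = 0.563, adjusted p = 0.563). The ratio spread more widely in KO mice, from -1.80 in KO replicate 4 to -0.89 in KO replicate 2.

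**Figure D3:**
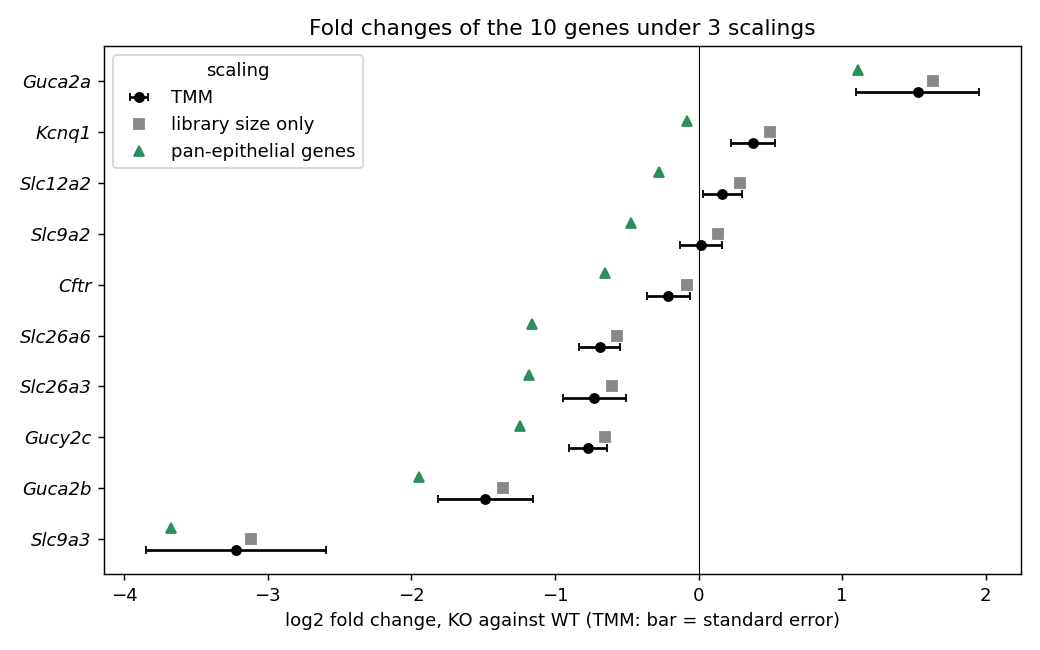
Log2 fold changes (KO against WT) of the 10 genes with TMM normalization (circles, bars show the SE of the edgeR model), with library size only (squares) and with scaling to 12 pan-epithelial genes (triangles). Scaling to epithelial genes moves all 10 genes to lower values along with the median of all tested genes (-0.44), and *Slc12a2*, *Kcnq1* and *Slc9a2* then lie below 0.

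*Cftr*, *Slc12a2* and *Kcnq1*, the members that serve chloride secretion, did not pass the test. *Cftr* (ENSMUSG00000041301, chromosome 6 from 18170687 to 18322768), the chloride and bicarbonate channel of the crypts, had 134, 122, 93.0, 105 and 124 CPM in WT replicates 1 to 5 and 114, 116, 97.2, 103.5 and 68.5 CPM in KO replicates 1 to 5. Only KO replicate 5 was outside the WT range. The log2 fold change was -0.21 (SE 0.15, adjusted p = 0.303), and -0.10 without KO replicate 5. *Slc12a2* (NKCC1, the cotransporter that supplies chloride) had 203, 183, 166, 209 and 218 CPM in WT replicates 1 to 5 and 235, 260.3, 239, 200.5 and 163 CPM in KO replicates 1 to 5. KO replicates 1, 2 and 3 were above all WT libraries and KO replicate 5 was below them, and the log2 fold change was 0.17 (SE 0.13, adjusted p = 0.367).

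*Kcnq1* (ENSMUSG00000009545), the potassium channel subunit of secreting crypt cells, had 47.0, 43.4, 39.8, 54.9 and 58.7 CPM in WT replicates 1 to 5 and 70.9, 71.7, 66.5, 42.8 and 65.3 CPM in KO replicates 1 to 5. In 4 KO libraries the level was above all WT libraries, and KO replicate 4, the library with the highest smooth muscle level, was within the WT range. The log2 fold change was 0.38 (SE 0.15, adjusted p = 0.0835), and 0.49 without KO replicate 4 (adjusted p = 0.0131) or 0.49 when scaled by library size only (adjusted p = 0.0320). *Kcnq1* exons overlap *Kcnq1ot1* on the other strand, and the handling of strand is not given in the sources used here. *Kcnq1ot1* itself was counted at 4.14 ± 1.33 CPM in WT and 4.19 ± 1.74 CPM in KO mice (SD, n = 5 each). *Kcne3*, the subunit that pairs with KCNQ1 in the gut and was named after its values were seen, rose from 41.8 ± 2.25 to 55.5 ± 7.37 CPM (SD, n = 5 each; log2 fold change 0.41, adjusted p = 0.0132). Of 8 crypt genes, 2 were higher and none was lower, and their summed level was 781 to 955 CPM in WT and 405 to 986 CPM in KO libraries. *Olfm4*, which had the most CPM of that list, did not pass (log2 fold change -0.85, adjusted p = 0.106). It had 377 to 483 CPM in WT libraries and 537, 226, 176, 94.6 and 162 CPM in KO replicates 1 to 5.

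*Slc9a3*, *Slc26a3*, *Slc26a6*, *Guca2a*, *Guca2b*, *Gucy2c* and *Cftr* kept their direction under all 3 scalings (TMM, library size only and pan-epithelial genes). Scaling to pan-epithelial genes shifted the median of all tested genes to -0.44 on the log2 scale, and library size alone to 0.15. Scaled to pan-epithelial genes, *Cftr* was at -0.65 (adjusted p = 0.0132) and *Slc9a2* at -0.47 (adjusted p = 0.0298). Relative to that median these were -0.21 and -0.03, while *Slc12a2* (0.16) and *Kcnq1* (0.36) were above it. On the same relative scale *Slc9a3* had -3.24, *Guca2b* -1.51, *Gucy2c* -0.81, *Slc26a3* -0.74, *Slc26a6* -0.73 and *Guca2a* 1.55, close to their values after TMM normalization.

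Levels were compared between genes as TPM, counts scaled by gene length and then to the same total in each library, with the exon length of each gene in GENCODE M21. In WT mice *Guca2b* was the most abundant of the 10 with 2984 ± 595 TPM (SD, n = 5), followed by *Guca2a* with 937 ± 677 TPM and *Gucy2c* with 274 ± 34.7 TPM. *Slc26a6* had 199.4 ± 35.6 TPM and overlapped with *Gucy2c*, but its range did not reach that of *Slc26a3* with 69.0 ± 10.3 TPM. *Slc26a3* and *Slc9a2* (64.4 ± 8.71 TPM) did not differ beyond their spread. Nor did *Slc12a2* (44.5 ± 4.27 TPM) and *Slc9a3* (43.9 ± 10.8 TPM), or *Slc9a3* and *Cftr* (36.9 ± 4.71 TPM). *Kcnq1*, at the end of the order with 29.6 ± 4.64 TPM, overlapped with *Cftr*. These overlaps are of ranges over the WT libraries. The order of genes within each library was not compared, so an overlap does not show that the order varied between mice. In KO mice *Guca2a* was at the top with 2762 ± 407 TPM, ahead of *Guca2b* with 1061 ± 557 TPM, *Gucy2c* with 163 ± 19.7 TPM and *Slc26a6* with 126 ± 15.2 TPM. *Slc9a3* moved from the 8th place to the last with 4.70 ± 4.02 TPM. The other 5 genes had means between 32.7 TPM (*Cftr*) and 66.7 TPM (*Slc9a2*) in KO mice.

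Beyond the 10 genes, 61 further genes of ion transport and its control were listed in 5 groups, and 52 of them were tested. Of these, 6 were higher and 14 were lower in KO mice, beside 16.0% higher and 13.9% lower over all tested genes (29.9% in either direction). The same shares over all tested genes are the background for the count of each list, and the lists were not tested against it. Their median log2 fold change was -0.04. Among channels and pumps of secretion, 3 of 11 tested genes were higher and 5 lower. The chloride channel *Ano1*, named after its values were seen, was among the higher ones (log2 fold change 1.07, adjusted p = 0.0103). *Atp1b1*, a beta subunit of the sodium pump, had 2268 ± 228 CPM in WT and 1290.0 ± 161 CPM in KO mice (SD, n = 5 each) and fell by 0.81 on the log2 scale (adjusted p = 0.00211). *Atp1b3*, another beta subunit that was named after its values were seen, went the other way. It rose from 42.3 ± 2.97 to 59.4 ± 12.5 CPM (log2 fold change 0.49, adjusted p = 0.0185). The potassium-chloride cotransporter *Slc12a7* fell from 221 ± 4.22 to 129 ± 18.6 CPM (log2 fold change -0.78, adjusted p = 8.44e-04) and the chloride channel *Clcn2* by 0.71 on the log2 scale (adjusted p = 0.00537).

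Among bicarbonate transporters and carbonic anhydrases, 2 of 12 tested genes were higher and 3 were lower, beside 16.0% and 13.9% of all tested genes. *Car12*, a membrane-bound carbonic anhydrase, rose from 20.1 ± 3.95 to 78.0 ± 17.9 CPM (SD, n = 5 each; log2 fold change 1.96, adjusted p = 1.72e-04), with no overlap between the groups. *Car9*, its relative, fell (log2 fold change -0.68, adjusted p = 0.0193). The sodium-bicarbonate cotransporter genes *Slc4a5* and *Slc4a7* fell, *Slc4a5* from 49.4 ± 17.1 to 3.59 ± 2.63 CPM (log2 fold change -3.79, adjusted p = 4.04e-04) and *Slc4a7* from 171 ± 95.9 to 48.9 ± 30.4 CPM (log2 fold change -1.81, adjusted p = 0.0129). *Slc4a4*, the basolateral cotransporter NBCe1, was named after its values were seen and was at 0.12 on the log2 scale (adjusted p = 0.633).

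None of the 10 tested genes of the sodium absorption list passed the threshold, in contrast to *Slc9a3* itself, which stands outside that list. *Slc9a8*, of the same gene family and named after its values were seen, came close (log2 fold change -0.21, adjusted p = 0.0502). All its KO libraries were below all WT libraries. The genes of that list with the most CPM over both groups were *Slc9a3r1* (NHERF1), a scaffold that holds NHE3 at the membrane, at -0.38 on the log2 scale (adjusted p = 0.0863), and *Ezr* (ezrin), which links that scaffold to actin, with 0.06 (adjusted p = 0.802). In the list of cyclic nucleotide signaling, 1 of 12 tested genes was higher and 4 were lower, beside 16.0% and 13.9% of all tested genes. Besides *Prkg2*, the receptors *Adora2b* for adenosine (18.6 ± 4.86 CPM in WT and 1.10 ± 1.12 CPM in KO mice, SD, n = 5 each; log2 fold change -4.07, adjusted p = 9.25e-04) and *Vipr1* for vasoactive intestinal peptide (log2 fold change -1.07, adjusted p = 0.00564) fell. Both signal through cyclic AMP, the other messenger that opens CFTR. Of 7 tested genes of the WNK kinase list, none was higher and 2 were lower, near the 29.9% called in either direction over all tested genes. The lower ones were *Stk39* (SPAK, the kinase that activates NKCC1) at -0.77 on the log2 scale (adjusted p = 0.00254) and *Cul3* at -0.35 (adjusted p = 0.00924).

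**Figure D4:**
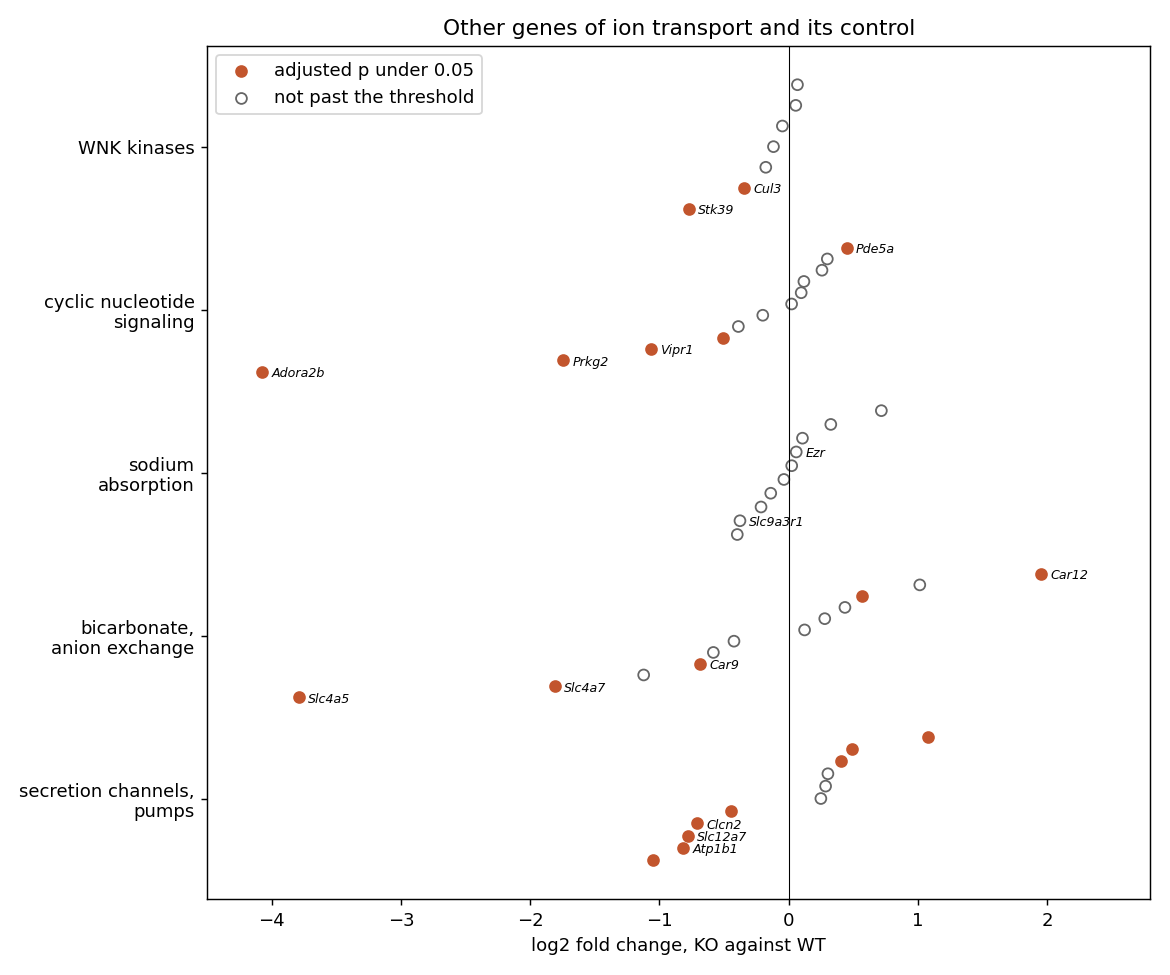
Log2 fold changes (KO against WT) of the 52 tested genes of 5 lists, with filled points for an adjusted p under 0.05 and open points for the rest. Filled points lie on both sides of 0 among secretion channels and pumps, bicarbonate genes and cyclic nucleotide genes, and the sodium absorption list has none.

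Other genes followed some of the members closely over the 10 libraries. The likeness was measured as the mean absolute difference of log2 CPM after each gene was centred on its own mean, among all tested genes, so that genes with the same change between groups come out as close. *Gucy2c* was closest to *Uso1* (0.0511), *Yipf5* (0.0522) and *Prrc1* (0.0555), whose log2 fold changes were between -0.81 and -0.80. *Guca2b* was closest to *Nat8* (0.163), *Faah* (0.175) and *Tmem135* (0.219). For *Guca2a* the closest genes were further away, among them *Osr2* at 0.262 and *Naaladl1* at 0.280. *Slc9a3* was closest to *Asah2* (0.410), *Ace* (0.442) and *Arl14* (0.489), whose log2 fold changes were -2.87, -2.85 and -2.89. *Cftr* was closest to *Pds5b* (0.101), *Ice2* (0.101) and *Mbd5* (0.104), whose log2 fold changes were between -0.24 and -0.06. These genes were picked from all tested genes for their likeness, and the values are a description of these libraries.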

How the data were processed

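RNA-seq libraries of tissue labelled proximal intestine from 5 WT and 5 KO mice were used as deposited. The values that the authors deposited are counts, whole numbers without normalization, 1 per Ensembl gene ID. The submitters' processing notes name FastQC 0.11.9, Trimmomatic, HISAT2 2.0.4, SAMtools 1.3.1, DESeq2 1.14.1 and the build GRCm38 (mm10), while the counting tool, its annotation and its use of strand are not given. Symbols, positions and exon lengths came from GENCODE M21 (GRCm38), which named 34490 of 35275 gene IDs. Nothing states how mice were housed together, and p-values measure the spread between these mice.

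R 4.3.3 was used with edgeR 4.0.16 and DESeq2 1.42.0. Counts were filtered with filterByExpr (minimum count 10, minimum total 15), normalized by TMM and compared with edgeR's quasi-likelihood test, with Benjamini-Hochberg adjustment over all 15610 tested genes and a threshold of 0.05. Adjusted p-values in the text are from this test unless another is named. The standard error is the log2 fold change divided by the square root of the F statistic. Log2 CPM had a prior count of 2. For 3 ratios of members an exact permutation test over all assignments of 5 and 5 libraries was used. The tests were run on simulated data before use.

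Members and gene lists were chosen with earlier results of these data known. Named genes were the members, *Slc39a14*, up to 4 called genes per pathway list with the lowest adjusted p (or the 2 most abundant), the 2 genes of most CPM in marker lists, and for 5 members the 3 genes of most similar pattern. *Pdx1*, *Gata4*, *Cybrd1*, *Fabp1*, *Slc40a1*, *Adh1*, *Aqp8*, *Ano1*, *Atp1b3*, *Kcne3*, *Kcnq1ot1*, *Slc4a4* and *Slc9a8* were named after their values were seen. Some genes that the rule names are not reported here. RefSeq promoter sequences were matched to 6 of the 10 members by symbol. Alternatives were RLE, library size only, scaling to pan-epithelial genes, DESeq2, other filters, robust dispersion, each mouse left out, a replicate block and a smooth muscle covariate. Counts at this depth limit only the lowest values, as a library with 0 counts allows up to 3 at 95% confidence.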

Additional observations from a re-analysis of the deposited data

Results flagged for a closer look

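Within the KO group, replicate 4 stood apart for 2 genes, each by a gap to the nearest library larger than Dixon's 95% limit for 5 values. *Kcnq1* had a log2 CPM of 5.42 in KO replicate 4 against 6.03 to 6.17 in the other KO libraries. *Slc9a2* had 6.97 in KO replicate 4 against 7.52 to 7.73. In all, 26 groups of 5 values were looked at, and chance alone sets about 1 in 20 apart in this way. KO replicate 4 had the highest smooth muscle level of all libraries (mean log2 CPM 9.50), whose part in these values was not tested.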

How the results depend on the processing

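*Slc9a3*, *Slc26a6*, *Guca2b* and *Gucy2c* each kept their direction and their side of the threshold in 18 of 19 alternatives, the exception being the smooth muscle score as a covariate, under which 0 of the 10 members and 12 of all tested genes passed and *Slc26a3* turned to 0.19. *Guca2b* lost its call there (adjusted p = 0.201) with a log2 fold change of -2.13, further from 0 than the -1.48 without the covariate, while *Slc9a3*, *Slc26a6* and *Gucy2c* came closer to 0. With scaling to pan-epithelial genes 8151 genes were called, 8.69% of them higher, against 53.5% of 4660 with TMM and 69.2% with library size only. Under that scaling *Slc9a2* turned to -0.47, *Slc12a2* to -0.27 and *Kcnq1* to -0.079. That scaling shifted the median of all tested genes to -0.44, and relative to it these were -0.03, 0.16 and 0.36. *Slc9a2* also turned to -0.0044 without a filter, and was between -0.068 and 0.13 with single mice left out. With single mice left out, 4 to 6 members and 3207 to 5507 of all tested genes passed. With the replicate block, 6 members and 3848 genes were called. The numbers are not shown to pair mice, as deviations of same-numbered libraries correlated between -0.17 and 0.18 and 1 of 5 WT libraries correlated best with its own number. Of 261 values under alternatives, 233 kept direction and side of the threshold, or stayed within 1.5 times for counts.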
